A study of Arabidopsis thaliana with 24 samples.

Results

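AT4G39670, AT2G28400, AT4G33540 and AT4G17470 are 4 Arabidopsis thaliana genes with lower mean values in the mpk11 mutant than in wild type in some or all conditions of this study. They were named for that difference in an earlier examination of the same arrays. Each has 1 probe, so they account for 4 of the 181 probes that the probe table gives to a single gene, on an array of 576 probes. The difference between mpk11 and wild type is therefore described here by set, with its spread and no test. The genes themselves are tested only for changes averaged over both genotypes, which do not contain that difference, and counts over all probes are given as the background.

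The study measured RNA on 24 single-dye spotted arrays. Col is the wild-type accession, and mpk11 is a T-DNA insertion line in the same accession (SALK049352, the single mutant line named), with the insertion in MPK11, which encodes a MAP kinase. Seedlings of 10 days, kept for 48 h in fresh liquid medium, received either 1 µM of the peptide flg22 or water (mock), and leaf RNA was taken 30 min or 3 h later. The 8 groups are thus Col and mpk11, each with mock or flg22, each at 30 min or 3 h. Every group holds 3 arrays, numbered as sets 1 to 3. Nothing in the labels says that the sets came from separate cultures, so the p-values speak only to the spread among these arrays, part of which may be technical. The number of arrays limits the precision. None of the 8 leaf markers and none of the 8 listed MAP kinase pathway genes, MPK11 included, was among the named probes, so neither the tissue nor the mutation could be checked here.

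The flg22 peptide is a conserved stretch of bacterial flagellin that plant cells perceive at the surface with the receptor kinase FLS2. Perception activates several MAP kinases within minutes, MPK11 among them together with MPK3, MPK4 and MPK6, and genes of transcription factors and defence proteins are induced soon after. MPK11 is a close relative of MPK4. Of the genes described here, AT4G39670 encodes a protein of the glycolipid transfer protein family, to which the cell death regulator ACD11 belongs. AT2G28400 encodes a DUF584 protein related to the senescence-associated S40 proteins first described in barley. AT4G33540 encodes a metallo-beta-lactamase family protein, and AT4G17470 an alpha/beta-hydrolase of the palmitoyl-protein thioesterase type. None of the 4, 12 and 6 listed relatives of AT4G39670, AT2G28400 and AT4G17470 had a named probe.

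Levels below are the deposited values on a log scale, taken as log2 although the base is not stated in the sources used here. A level of a probe is compared only with the same probe on other arrays. RNA came from whole leaves, in which fewer cells of a type and less RNA per cell cannot be told apart. Array medians ran from 3.34 to 3.76 for mock arrays and from 4.02 to 4.17 for flg22 arrays, so the scaling of the arrays bears on every change with flg22. Between the genotypes the median difference of all 576 probes, mpk11 less Col, was small by comparison, at -0.049 in mock and -0.036 with flg22 at 30 min, and -0.067 and 0.0037 at 3 h.

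AT4G39670, the glycolipid transfer protein gene, had the widest range of levels of the 4 genes. In wild type with flg22 at 30 min its levels were 6.71, 6.28 and 6.46 in sets 1, 2 and 3. In mpk11 under the same treatment they were 6.20, 5.74 and 5.44. All 3 mutant arrays lay below all 3 wild-type arrays, the gap being narrow between mutant set 1 and wild-type set 2. The difference mpk11 less Col was -0.51, -0.54 and -1.02 in the 3 sets, with a mean of -0.69 ± 0.29 (SD, n = 3). The 8-group limma fit put a 95% interval of -1.09 to -0.29 around this mean, and set 3 held the largest difference. On a linear scale, if the base is 2, the wild-type level was 1.61 times that of the mutant.

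The other conditions showed no such separation for AT4G39670. In mock at 30 min its levels were 2.35, 2.97 and 2.95 in wild type and 2.86, 2.76 and 2.89 in mpk11, a mean difference of 0.079 ± 0.38 (SD, n = 3; 95% interval of the fit -0.32 to 0.48). Wild-type set 1 was the lowest of these 6 arrays, and the other 5 lay close together. In mock at 3 h the levels were 2.86, 2.61 and 2.83 in wild type and 2.48, 2.94 and 2.51 in mpk11, a difference of -0.13 ± 0.40 (95% interval -0.52 to 0.27), and the ranges overlapped. With flg22 at 3 h the wild-type levels of 4.13, 4.19 and 4.17 were almost alike. The mutant levels of 4.08, 4.54 and 4.32 spread to both sides of them, with a mean difference of 0.15 ± 0.20 (95% interval -0.25 to 0.55). In this condition mpk11 was lower in 1 of 3 sets.

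Ordered by its mean level, AT4G39670 was highest in wild type with flg22 at 30 min (6.49), followed by mpk11 with flg22 at 30 min (5.79). The flg22 groups at 3 h came next, mpk11 at 4.31 and wild type at 4.16, whose ranges overlapped. The 4 mock groups lay between 2.64 and 2.84 and each overlapped its neighbour in the order.

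**Figure D1:**
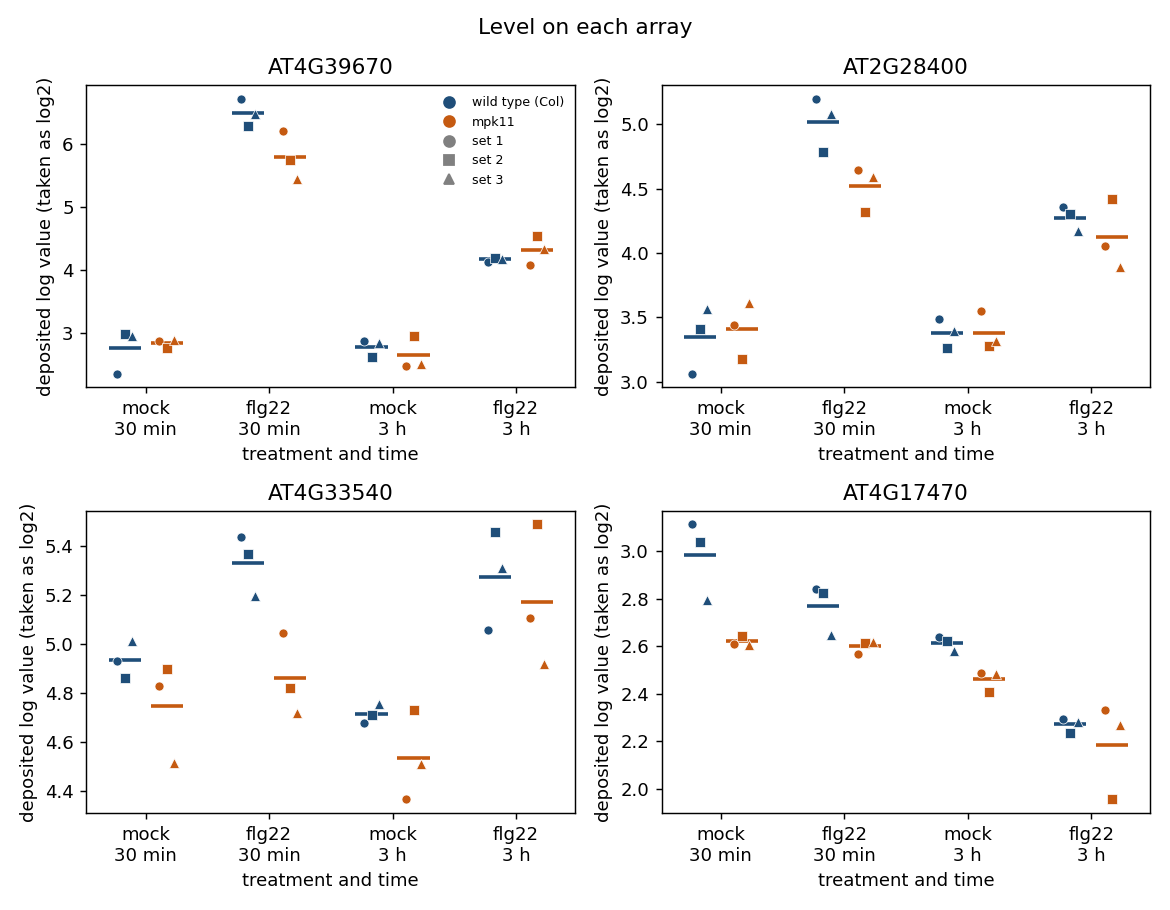
Level of each gene on each of the 24 arrays (vertical axis, deposited log value taken as log2) by treatment and time (horizontal axis), with wild type (Col) in blue, mpk11 in orange, a symbol for each set and a bar at the mean of 3 arrays. With flg22 at 30 min all mpk11 points of each gene lie below all wild-type points, and with flg22 at 3 h the ranges of the genotypes overlap for each gene.

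AT2G28400, the DUF584 gene, had levels of 5.20, 4.79 and 5.08 in wild type with flg22 at 30 min and of 4.65, 4.32 and 4.59 in mpk11. Set 2 was the lowest in both genotypes, and the highest mutant array stayed below the lowest wild-type array. The difference by set was -0.55, -0.47 and -0.48, a mean of -0.50 ± 0.046 (SD, n = 3; 95% interval of the fit -0.84 to -0.16), and it was -0.33 after quantile normalization. This SD was below the SE of 0.16 from the fit, which rests on the spread of single arrays in all groups and does not use the set numbers.

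In mock the genotypes had nearly the same mean for AT2G28400. At 30 min the levels were 3.06, 3.41 and 3.57 in wild type and 3.44, 3.18 and 3.61 in mpk11, a difference of 0.063 ± 0.31 (95% interval -0.28 to 0.40). At 3 h they were 3.49, 3.26 and 3.40 in wild type and 3.55, 3.28 and 3.32 in mpk11, a difference of 0.00096 ± 0.071 (95% interval -0.34 to 0.34). Both pairs of groups overlapped widely. With flg22 at 3 h wild type gave 4.36, 4.30 and 4.17 and mpk11 4.06, 4.42 and 3.89, a difference of -0.15 ± 0.23 (95% interval -0.49 to 0.19), and the mutant set 2 array was the highest of the 6. The order of the means was again led by wild type with flg22 at 30 min (5.02), whose range did not overlap that of the next group, mpk11 with flg22 at 30 min (4.52). That group overlapped wild type with flg22 at 3 h (4.28), which overlapped mpk11 with flg22 at 3 h (4.12), and the mock groups followed between 3.35 and 3.41.

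AT4G33540, the metallo-beta-lactamase family gene, stayed within a narrower band of levels. Wild type with flg22 at 30 min had 5.44, 5.36 and 5.19 and mpk11 5.04, 4.82 and 4.72, which did not overlap. The difference was -0.39, -0.55 and -0.48 by set, a mean of -0.47 ± 0.077 (SD, n = 3; 95% interval of the fit -0.79 to -0.15), and it was -0.31 after quantile normalization. In mock at 30 min the levels were 4.93, 4.86 and 5.01 in wild type and 4.83, 4.90 and 4.51 in mpk11, a difference of -0.19 ± 0.28 (95% interval -0.51 to 0.13). Only the mutant array of set 3 stood clearly below the wild-type arrays there.

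At 3 h in mock AT4G33540 had 4.68, 4.71 and 4.75 in wild type and 4.36, 4.73 and 4.51 in mpk11, a difference of -0.18 ± 0.18 (95% interval -0.50 to 0.14). With flg22 at 3 h it had 5.06, 5.45 and 5.31 in wild type and 5.10, 5.49 and 4.92 in mpk11, a difference of -0.10 ± 0.25 (95% interval -0.42 to 0.21). Sets 1 and 2 were almost equal between the genotypes in that last condition, and set 3 differed by -0.39. Every neighbouring pair of groups in the order of its means overlapped, from wild type with flg22 at 30 min (5.33) down to mpk11 with mock at 3 h (4.53).

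AT4G17470, the thioesterase-type hydrolase gene, was the only one of the 4 whose largest difference was in mock. In mock at 30 min its levels were 3.11, 3.04 and 2.80 in wild type and 2.61, 2.64 and 2.61 in mpk11. The mutant arrays were nearly identical and all lay below the lowest wild-type array. The difference was -0.50, -0.40 and -0.19 by set, a mean of -0.36 ± 0.16 (SD, n = 3; 95% interval of the fit -0.60 to -0.13). Under flg22 at that time wild type had 2.84, 2.83 and 2.65 and mpk11 2.57, 2.61 and 2.62, a difference of -0.17 ± 0.13 (95% interval -0.41 to 0.066). The ranges just missed each other, set 3 differing by -0.031.

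At 3 h in mock AT4G17470 had 2.64, 2.62 and 2.58 in wild type and 2.49, 2.41 and 2.48 in mpk11, a difference of -0.15 ± 0.059 (95% interval -0.39 to 0.084), again without overlap. After quantile normalization of the arrays this difference was 0.010 (SE 0.13), and after centring each array on its median it was -0.091. With flg22 at 3 h the gene had 2.29, 2.24 and 2.28 in wild type and 2.33, 1.95 and 2.27 in mpk11, a difference of -0.086 ± 0.17 (95% interval -0.32 to 0.15), which rested on mutant set 2. In order, wild type in mock at 30 min (2.98) was highest and overlapped wild type with flg22 at 30 min (2.77). The next 3 groups, mpk11 in mock at 30 min, wild type in mock at 3 h and mpk11 with flg22 at 30 min, lay between 2.60 and 2.62. They were followed by mpk11 in mock at 3 h (2.46) and by the overlapping flg22 groups at 3 h (2.27 in wild type and 2.18 in mpk11).

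**Figure D2:**
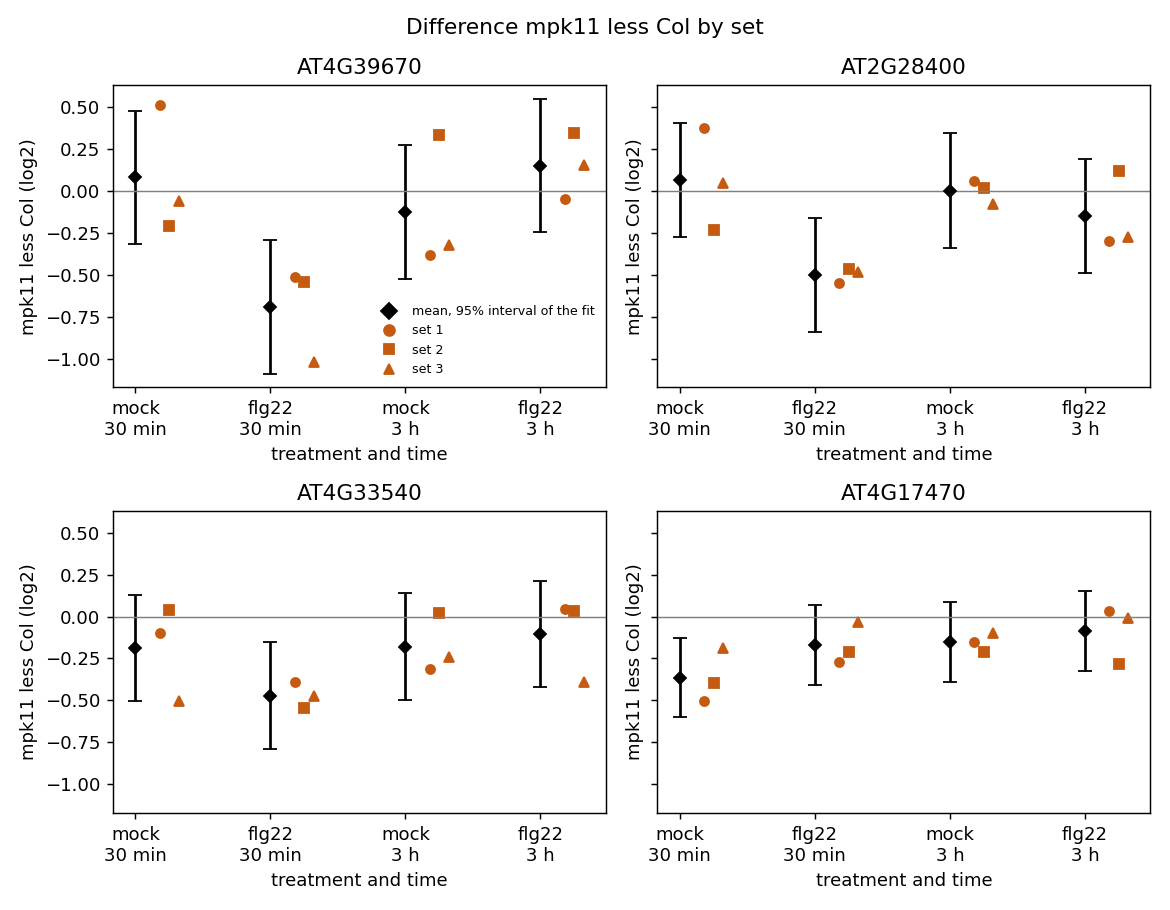
Difference mpk11 less Col (vertical axis, log2) by treatment and time (horizontal axis) for each gene, with each set as an orange symbol and the mean with the 95% interval of the 8-group fit as a black diamond and bar. With flg22 at 30 min the 3 sets of each gene lie below 0, while at 3 h with flg22 the sets of each gene fall on both sides of 0.

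All 4 genes were lower in mpk11 with flg22 at 30 min in 3 of 3 sets, as were 22.9% of all probes, and the ranges of all 4 did not overlap, as for 8.85% of all probes. Since the genes were named for this difference, nothing is read from these counts. In mock at 30 min AT4G17470 alone of the 4 was lower without overlap, beside 8.16% of all probes. It was again the only one in mock at 3 h, where 6.08% of probes were. With flg22 at 3 h 0 of 4 were, beside 1.91% of probes. In limma no probe of the 576 passed an adjusted p of 0.05 between the genotypes in any of these conditions (0% in each). An unadjusted p under 0.05 was found for 50 probes in mock and 24 with flg22 at 30 min, and for 6 and 8 at 3 h. With no difference at all, a share of 0.05 of the 576 probes would pass this threshold on average. Nothing is read from these counts.

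Ranked from the lowest difference among all 576 probes with flg22 at 30 min, AT4G39670 stood at place 2, AT2G28400 at place 13, AT4G33540 at place 15 and AT4G17470 at place 137. With flg22 at 3 h their places were 496, 83, 127 and 150. In mock the places, in the same order of genes, were 423, 405, 157 and 55 at 30 min and 203, 380, 122 and 163 at 3 h. The genes were named for this difference, so nothing is read from their places or from a shift between conditions.

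**Figure D3:**
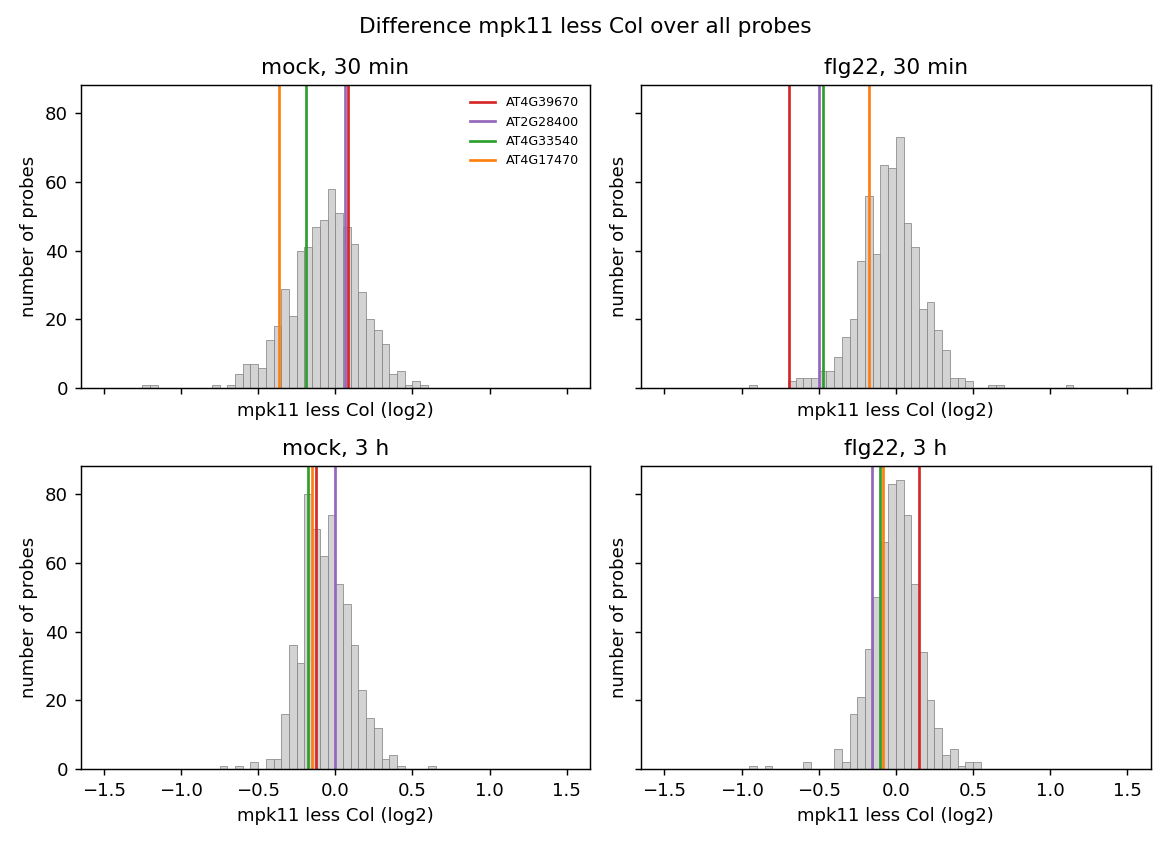
Number of probes (vertical axis) by the difference mpk11 less Col (horizontal axis, log2, bins of 0.05) over all 576 probes in each of the 4 conditions, with a coloured line at the value of each gene. With flg22 at 30 min AT4G39670, AT2G28400 and AT4G33540 lie in the lower tail, and with flg22 at 3 h AT4G39670 lies at 0.15, above most probes.

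Averaged over the 4 conditions, the difference mpk11 less Col was -0.24 ± 0.15 for AT4G33540 (SD over 3 set means; 95% interval of the fit -0.39 to -0.077) and -0.19 ± 0.10 for AT4G17470 (-0.31 to -0.075). It was -0.15 ± 0.15 for AT4G39670 (-0.35 to 0.052) and -0.15 ± 0.047 for AT2G28400 (-0.32 to 0.023). After quantile normalization AT2G28400 was at -0.056 and AT4G17470 at -0.13, and without set 3 AT4G39670 was at -0.063 and AT4G33540 at -0.15. As deposited, the mean difference was below 0 in 4 of 4 conditions for AT4G33540 and AT4G17470, but in 2 of 4 for AT4G39670 and AT2G28400. The last 2 were thus not lower in mpk11 throughout. For AT4G17470 the difference in mock at 3 h was 0.010 after quantile normalization. The median over all probes was -0.049 in mock and -0.036 with flg22 at 30 min, and -0.067 and 0.0037 at 3 h. Of the 12 pairs of same-numbered arrays, AT4G17470 was lower in mpk11 in 11, AT4G39670 and AT4G33540 in 8 each and AT2G28400 in 7, where the median over all probes was 7. A count of 11 or more was reached by 9 probes, 1.56% of all. All 4 genes had a mean below 0 in 3 of 3 sets, as had 24.8% of all probes. These counts and intervals come from the differences by which the genes were named, and the intervals are not adjusted for that. Nothing is read from them about an effect of the genotype.

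The flg22 response was tested as the mean of both genotypes, a contrast that leaves out the difference by which the genes were named. At 30 min 2 of the 4 genes rose, where 23.3% of all probes rose and 3.47% fell (limma, Benjamini-Hochberg adjusted p below 0.05). AT4G39670 rose by 3.34 (SE 0.14; limma adjusted p = 1.41e-15), with 3.85, 3.14 and 3.03 in the 3 sets, 10.1-fold if the base is 2. AT2G28400 rose by 1.39 (SE 0.12; limma adjusted p = 5.02e-10), with 1.67, 1.26 and 1.25 in the sets, and by 0.91 after median centring. Both were higher with flg22 in 3 of 3 sets of each genotype.

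The other 2 genes did not pass at 30 min. AT4G33540 differed by 0.26 (95% interval 0.032 to 0.48; limma adjusted p = 0.0942), higher in 3 of 3 sets. Its sign depends on the scaling of the arrays, since it was -0.23 after centring each array on its median (limma adjusted p = 0.0886) and -0.33 after quantile normalization (limma adjusted p = 0.0112). AT4G17470 differed by -0.12 (95% interval -0.28 to 0.051; limma adjusted p = 0.407), and passed as lower, by -0.60 and -0.30, under the same 2 scalings (limma adjusted p = 2.03e-05 and 0.00619). Under these scalings 64.8% and 45.1% of all probes passed as lower. Over all alternatives the limma adjusted p ran from 0.0112 to 0.517 for AT4G33540 and from 2.03e-05 to 0.783 for AT4G17470. Median centring moved all changes with flg22 at 30 min by -0.48, which took the median over all probes from 0.058 to -0.43.

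At 3 h 3 of the 4 genes rose and 1 fell, where 39.2% of all probes rose and 10.4% fell. AT4G39670 rose by 1.53 (SE 0.14; limma adjusted p = 1.19e-09) and AT2G28400 by 0.82 (SE 0.12; limma adjusted p = 2.27e-06). After median centring these rises were 0.96 and 0.24, both still past the threshold. AT4G33540 rose by 0.60 (SE 0.11; limma adjusted p = 5.80e-05), but was 0.022 after median centring (limma adjusted p = 0.868) and -0.14 after quantile normalization (limma adjusted p = 0.237; from 1.12e-05 to 0.868 over all alternatives). AT4G17470 fell by 0.31 (SE 0.081; limma adjusted p = 0.00258), lower in 3 of 3 sets and also under both scalings, by -0.89 after median centring. After median centring and quantile normalization, however, 56.6% and 42.5% of all probes passed as lower at 3 h. Median centring moved all changes at 3 h by -0.58, from a median of 0.17 over all probes to -0.41.

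Between the times the response itself changed for 2 of the 4 genes, where the signed change, 3 h less 30 min, was called below 0 for 16.1% of all probes and above 0 for 21.5%. A fall that deepened also counts as a change below 0. The response of AT4G39670 fell by 1.81 from 30 min to 3 h (SE 0.19; limma adjusted p = 5.38e-08), with -2.42, -1.56 and -1.46 in the sets. That of AT2G28400 fell by 0.57 (SE 0.16; limma adjusted p = 0.00733), with -0.98, -0.17 and -0.57. The call of AT2G28400 was lost without set 1 (-0.37, limma adjusted p = 0.232) or set 3 (-0.58, limma adjusted p = 0.0734), the range over all alternatives being 7.31e-04 to 0.232. AT4G33540 differed in the other direction, by 0.34 (limma adjusted p = 0.0870), and passed when sets entered as a random replicate block (limma adjusted p = 0.0486) or without the mpk11 array of set 3 with flg22 at 3 h or with mock at 30 min (limma adjusted p = 0.0388 and 0.0454), with up to 0.372 among the alternatives. AT4G17470 differed by -0.19 (limma adjusted p = 0.210).

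In mock-treated seedlings AT4G17470 fell by 0.27 from 30 min to 3 h (SE 0.081; limma adjusted p = 0.0212), lower in 3 of 3 sets, where 16.5% of all probes fell and 3.99% rose. This call was lost after median centring (-0.12, limma adjusted p = 0.438), after quantile normalization (-0.24, limma adjusted p = 0.0596) and with only the mock groups in the fit (limma adjusted p = 0.0618). It was also lost without set 1, 2 or 3 (limma adjusted p = 0.184, 0.127 and 0.113) and without the wild-type mock array of set 1 at 30 min (limma adjusted p = 0.0538). The limma adjusted p ran from 0.00822 to 0.438 over all alternatives. Median centring moved all mock changes by 0.15. The other genes did not pass: AT4G33540 differed by -0.22 (limma adjusted p = 0.202), AT4G39670 by -0.093 (limma adjusted p = 0.758) and AT2G28400 by 0.0030 (limma adjusted p = 0.990).

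By genotype, the flg22 responses at 30 min give the same differences as above in another form, since they use the same arrays, and they too are a description. The response of AT4G39670 was 4.37, 3.31 and 3.51 in the wild-type sets and 3.34, 2.98 and 2.55 in those of mpk11. The response of mpk11 less that of wild type was -0.77 ± 0.38 (SD, n = 3; 95% interval of the fit -1.33 to -0.21), lower in 3 of 3 sets, as for 12.3% of all probes. On the log scale the mutant response was 79.3% of the wild-type one as deposited, a share that depends on the scaling of the arrays. The mean responses were 3.26 in wild type and 2.46 in mpk11 after median centring, and 3.37 and 2.42 after quantile normalization. Wild-type set 1, whose mock array was the lowest, gave the largest response.

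For AT2G28400 the response at 30 min was 2.14, 1.38 and 1.51 in wild type and 1.21, 1.14 and 0.98 in mpk11, a difference of -0.56 ± 0.35 (95% interval -1.04 to -0.082). By set the difference was -0.93, -0.23 and -0.53. The wild-type mock array of set 1 was the lowest for this gene too, at 3.06, and set 1 gave the largest difference. The mutant response was 66.4% of the wild-type one as deposited, a share that also depends on the scaling. The mean responses were 1.20 in wild type and 0.61 in mpk11 after median centring, and 1.20 and 0.66 after quantile normalization. For AT4G33540 the response at 30 min was 0.51, 0.50 and 0.18 in wild type and 0.22, -0.076 and 0.21 in mpk11, a difference of -0.28 ± 0.30 (95% interval -0.73 to 0.17). For AT4G17470 the responses were -0.27, -0.22 and -0.15 in wild type and -0.040, -0.030 and 0.0090 in mpk11, a difference of 0.19 ± 0.038 (95% interval -0.14 to 0.53). The mean response of AT4G17470 in mpk11 was -0.020 as deposited, -0.52 after median centring and -0.18 after quantile normalization, so its size rests on the scaling of the arrays.

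At 3 h the mean responses of the genotypes lay closer together than at 30 min for each of the 4 genes, a change that was not tested. The response of AT4G39670 was 1.39 ± 0.17 in wild type and 1.67 ± 0.13 in mpk11 (SD, n = 3), a difference of 0.28 ± 0.24 (95% interval -0.29 to 0.84) that was above 0 in 3 of 3 sets, as for 16% of all probes. The difference of the responses was -0.15 ± 0.23 for AT2G28400, 0.075 ± 0.26 for AT4G33540 and 0.068 ± 0.13 for AT4G17470. In limma 0 of 576 probes had a different response between the genotypes at either time (adjusted p below 0.05, 0%). The level of AT4G39670 under flg22 at 3 h less that at 30 min was -2.32 ± 0.25 in wild type and -1.48 ± 0.56 in mpk11 (SD, n = 3).

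**Figure D4:**
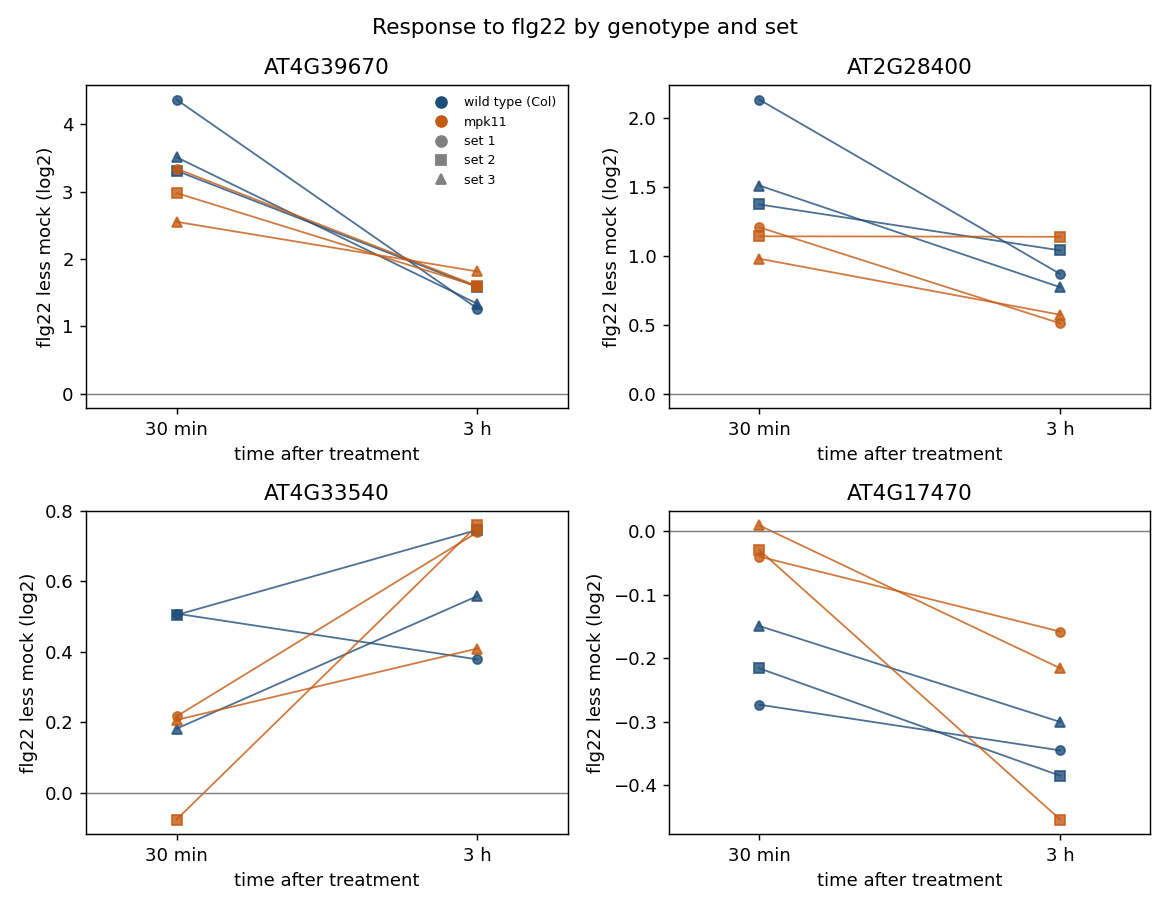
Response to flg22, flg22 less mock (vertical axis, log2), at 30 min and 3 h (horizontal axis) for each gene, with a line for each set of wild type (blue) and mpk11 (orange). At 30 min the wild-type line of each set starts above the mpk11 line of the same set for AT4G39670 and AT2G28400, and at 3 h the points of AT4G39670 lie between 1.26 and 1.58 in wild type and between 1.60 and 1.81 in mpk11.

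The named genes with the most similar pattern over the 8 group means differed between the 4 genes. The 8 points share arrays and differ by treatment, time and genotype, so a correlation can reflect any of these. They also contain the genotype differences by which the genes were named. The correlations do not measure the size of the flg22 response. By Pearson's r AT4G39670 was most like STZ (AT1G27730), a zinc-finger transcription factor, with r = 0.99 and a Spearman rho of 0.833 (n = 8 groups). WRKY53 (AT4G23810), a WRKY transcription factor, followed with r = 0.981 and AT2G28400 itself with r = 0.98, both with a higher rho than STZ (0.976 and 0.905). AT2G28400 was in turn most like WRKY53, AT4G39670 and STZ, with r between 0.973 and 0.98.

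AT4G33540 was most like Hsp70-2 (AT5G02490, r = 0.923), a chaperone gene of a near-identical family whose probe may report relatives, then WRKY6 (AT1G62300, r = 0.9) and AT2G36950 (r = 0.875). By Spearman's rho AT2G36950 (0.976) stood above Hsp70-2 (0.929) beside AT4G33540. The correlations use the values as deposited, and the sign of the flg22 change of AT4G33540 depends on the scaling. AT4G17470 was most like PHV (AT1G30490, r = 0.927), which encodes a homeodomain transcription factor of leaf polarity, then AT2G26690 (r = 0.904) and FATB (AT1G08510, r = 0.876), an acyl carrier protein thioesterase. The median r over the other named probes was 0.321 for AT4G39670, 0.338 for AT2G28400, 0.395 for AT4G33540 and -0.114 for AT4G17470.

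Of the 3 genes most like AT4G39670 by Pearson's r, STZ had a difference mpk11 less Col of -0.13 with flg22 at 30 min (95% interval -0.56 to 0.30). It was -0.21 for WRKY53 (95% interval -0.54 to 0.11) and -0.50 for AT2G28400 (95% interval -0.84 to -0.16). AT4G39670 and AT2G28400 were named for this difference. Smaller differences in other genes were therefore likely, and nothing is read from the contrast. Of 10 listed flagellin-response markers 4 had a probe, STZ, WRKY53, WRKY22 and WRKY29. All 4 rose at both times in the mean of both genotypes, where 23.3% of all probes rose at 30 min and 39.2% at 3 h. The median rise of the 4 markers at 30 min was 3.52, from 0.86 for WRKY29 to 4.80 for STZ. Their median difference mpk11 less Col with flg22 at 30 min was -0.099, from -0.21 for WRKY53 to 0.0023 for WRKY22, beside -0.036 for all probes. Whether the difference of AT4G39670 departs from that of STZ or WRKY53 was not tested.

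The 12 differences mpk11 less Col, 3 sets in each of 4 conditions, were also set side by side. They share arrays with each other, and the genes were chosen from them. By Pearson's r, which set the order, AT4G39670 and AT2G28400 were each other's closest named probe (r = 0.745, Spearman rho = 0.699, n = 12). By Spearman's rho AT1G62660 stood higher beside AT4G39670 (rho = 0.888, r = 0.724). IAGLU (AT4G15550), an auxin glucosyltransferase gene, came next for both (r = 0.728 and 0.719), although its flg22 response at 30 min was -0.32 in the mean of both genotypes. AT4G33540 was closest to the vacuolar invertase gene AT1G62660 (r = 0.684) and had r = 0.615 with AT4G39670 and r = 0.433 with AT2G28400 (rho 0.559 and 0.322). AT4G17470 had r = -0.39 with AT4G39670, r = -0.467 with AT2G28400 and r = -0.29 with AT4G33540. It was closest to AT2G18680 (r = 0.8), for which no role is given here.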

How the data were processed

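RNA of 24 samples was hybridised to single-dye (Alexa555) spotted arrays. Per the labels, spots of poor quality were found with a Cy5-labelled oligonucleotide and removed. The values deposited by the authors are on a log scale, taken as log2 from their range (0.450 to 11.4). The sources used here do not give the log base, the background correction or the normalization. Each array holds 311 to 405 distinct values over 576 probes, 0 values were missing and 0 pairs of arrays were identical.

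Members and gene lists were chosen with earlier results of these data known. The probe table names 1 gene for 181 probes, of which 180 matched RefSeq (TAIR10.1) by gene identifier, and 395 probes are unnamed here. No probe coordinates or sequences were used. Beside the 4 genes, the genes named were the 3 named probes most correlated with each, over 8 group means and over 12 differences, and the members of the fixed lists.

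limma 3.58.1 in R 4.3.3 fitted 8 group means over all 24 arrays (prior degrees of freedom 5.39), with Benjamini-Hochberg adjustment over all probes and a threshold of 0.05. The code was tested on simulated data. Same-numbered arrays of 2 groups deviated together (every r above 0.1) in 8 of 10 comparisons checked. The exceptions were the genotypes with flg22 at 3 h and wild-type mock between the times (lowest r -0.025). Same-numbered arrays thus varied together in most comparisons, which does not show how the samples were paired. The main fit leaves this shared variation out, and the replicate block among the alternatives takes it in. The alternatives were median centring, quantile normalization, a fixed or random replicate block, leaving out the dimmest 25% of probes, a trended and robust prior, only the compared groups, and leaving out each array or set. Figures used matplotlib 3.10.9.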

Additional observations from a re-analysis of the deposited data

Results flagged for a closer look

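The flg22 response of AT4G39670 differed between the time points by a test of that difference, at 3 h less 30 min -1.81 (limma adjusted p = 5.38e-08, in 3 of 3 sets). The same test passed for AT2G28400, at -0.57 (limma adjusted p = 0.00733, in 3 of 3 sets), and was lost without set 1 (-0.37, limma adjusted p = 0.232) or set 3 (-0.58, limma adjusted p = 0.0734).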

How the results depend on the processing

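Scaling bore most on the changes with flg22. After median centring 469 probes passed at 30 min (96 higher, 373 lower) and 459 at 3 h (133 higher, 326 lower), and 362 at 30 min after quantile normalization (102 higher, 260 lower), instead of 154 and 286 (134 and 226 higher, 20 and 60 lower). At 30 min AT4G33540 was then -0.23 and -0.33 and AT4G17470 -0.60 and -0.30 (median centring and quantile normalization). At 3 h AT4G33540 was 0.022 and -0.14. In mock between the times AT4G39670 was 0.054 after median centring, and AT4G17470 was -0.12, -0.24 and -0.27 with median centring, quantile normalization and only the compared groups. Of mpk11 less Col, AT4G17470 in mock at 3 h was -0.091 and 0.010 after median centring and quantile normalization. After quantile normalization AT2G28400 and AT4G33540 were -0.33 and -0.31 with flg22 at 30 min, and AT2G28400 -0.056 over the 4 conditions.

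With the random replicate block 2 probes passed over the 4 conditions, neither of them of the 4 genes, and the response change of AT4G33540, 0.34, passed. The block, fixed or random, changed no other call of the 4 genes. With the fixed block the 95% interval of AT4G39670 with flg22 at 30 min was -1.09 to -0.29, as without it.

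Leaving out single arrays or sets gave from 58 (without set 3) to 120 probes past the threshold for the mock time change. There AT2G28400 ranged from -0.13 to 0.12 and AT4G17470 from -0.31 to -0.23. The response change ranged from -0.78 to -0.37 for AT2G28400 and from 0.24 to 0.41 for AT4G33540. Of mpk11 less Col, AT2G28400 in mock at 3 h ranged from -0.082 to 0.054. With flg22 at 30 min AT4G39670 ranged from -0.90 to -0.52, AT2G28400 from -0.62 to -0.40 and AT4G33540 from -0.56 to -0.40. In that condition and over the 4 conditions, 0 to 1 probes passed, the 1 without the wild-type flg22 array of set 3 at 30 min. AT4G17470 was among the probes removed by the filter on dim probes, which kept 432 probes and 3 of the 4 genes. The causes were not tested.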

Other observations

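Within a group, the arrays of AT4G17470 lay closer together than those of most probes. Its SD within groups was 0.103, and 1.39% of the 576 probes had a smaller one, against a median SD of 0.225. For AT4G33540, AT2G28400 and AT4G39670 the SD was 0.177, 0.196 and 0.241. AT4G17470 is also among the dimmest 25% of probes by mean value. On 16 of 24 arrays its value occurred again in at least 1 other probe, and the nearest different value on an array lay 0.0095 away in the median. This was not particular to AT4G17470. Values recurred on 21 arrays for AT2G28400, 14 for AT4G39670 and 11 for AT4G33540, with median gaps of 0.011, 0.0090 and 0.011.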
